A study of Mus musculus with 6 samples.

Results

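The postsynaptic density is the protein meshwork beneath the membrane of excitatory synapses, and 32 genes coding for its scaffolds and signalling proteins were followed here. They were taken from a list of gene symbols and matched in the GENCODE M21 annotation to the identifiers of the count files, where each symbol had 1 identifier, giving 32 of 54532 identifiers. The list was set by gene symbol and not by a cut on the measured values, but it was chosen with earlier results of these data known. RNA was sequenced from whole mouse brains on the C57BL/6J background at postnatal day 14, from 3 controls with the genotype Mphosph8fl/+ Nestin-Cre+ and 3 mutants with the genotype Mphosph8fl/fl Nestin-Cre+, with 1 library per brain. Nestin-Cre is a recombinase transgene active in the developing nervous system, which removes the floxed exon of Mphosph8. All 6 brains carried it and at least 1 floxed allele, so controls were heterozygous for the deletion in Cre-expressing cells and no brain without Cre was included. Cells in which the transgene is not active keep the gene in both genotypes, and which cells these were was not measured.

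At an excitatory synapse, glutamate receptors are held opposite the release site by layers of scaffold proteins. MAGUK proteins bind receptors at the membrane, SAPAP proteins link MAGUKs to Shank proteins, and Shank proteins connect onwards to Homer and the actin of the spine. The kinase CaMKII, regulators of small GTPases and kinase-anchoring proteins sit on this frame and pass calcium signals to the receptors and the cytoskeleton. MPP8, the product of Mphosph8, belongs to the HUSH complex, which keeps chromatin marked by histone H3 lysine 9 trimethylation silent. The comparison asked whether transcripts of the postsynaptic frame differ when Mphosph8 is deleted in the nervous system.

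Depth ran from 12956880 to 15223424 counts per library, and each of the 32 genes had between 250 and 30011 counts in every library. Levels are given as CPM, the counts of a gene scaled to the effective size of its library. Mphosph8 itself (ENSMUSG00000079184) stood at 55.8, 48.6 and 70.7 CPM in controls and at 33.1, 27.2 and 26.5 CPM in mutants. It fell by 1.02 on the log2 scale (SE 0.12, edgeR adjusted p = 0.000157), without overlap between the groups. Control 3 had 3641 counts of Y-linked genes and 27 of Xist, whereas the other 5 libraries had 0 or 1 and 11130 to 17697. The labels give no sex, but by these counts control 3 was male and the other 5 libraries female. Sex was therefore not balanced between the genotypes. Fits without control 3 are given for the 32 genes as a set and for some single genes. Without it the log2 fold change of Mphosph8 was -0.85 (edgeR adjusted p = 0.000943). Replicates are separate brains. In whole-brain RNA, fewer cells of a type and less RNA per cell cannot be told apart.

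None of the 32 postsynaptic density genes passed the test between genotypes. All 32 passed the filter on low counts. The smallest adjusted p was 0.478 in edgeR's quasi-likelihood test and 0.320 in DESeq2, and 0 genes had an adjusted p under 0.05 in either, with or without the fold change over 2 that the study required. Across the 16731 genes tested, 0.532% were called higher in mutants and 0.0956% lower by edgeR, 0.359% were called in either direction with a fold change over 2, and DESeq2 called 0.568% of 19004 in either direction. Differences were small and mostly on 1 side of 0. The log2 fold change of mutant over control was above 0 for 30 of the 32 genes (93.75%), against 47.6% of all genes tested, and its median was 0.11 against -0.01. Values ran from -0.08 (Nrgn) to 0.29 (Dlgap2), with SE between 0.07 and 0.13. The highest upper 95% limit was 0.57, a 1.48-fold difference, and the lowest lower limit was -0.33.

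At an unadjusted p under 0.05, 5 genes (15.6%) were higher in mutants and 0 lower, where 4.09% and 2.41% of all genes tested were. These were Dlg2, Dlgap1, Dlgap2, Dlgap3 and Shank3. DESeq2 placed 9 higher and 0 lower at that limit, against 2.58% and 1.43% of the 19004 genes it gave an adjusted p. All 3 mutant libraries lay above all 3 controls for 5 genes (15.6%), namely Dlg4, Dlgap1, Shank1, Camk2g and Agap2, against 6.23% of all genes, and all 3 lay below for 0, against 5.42%. The other 27 genes overlapped. The 32 genes come from the same 6 brains and are not replicates of the condition, and these counts carry no test of their own.

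**Figure D1:**
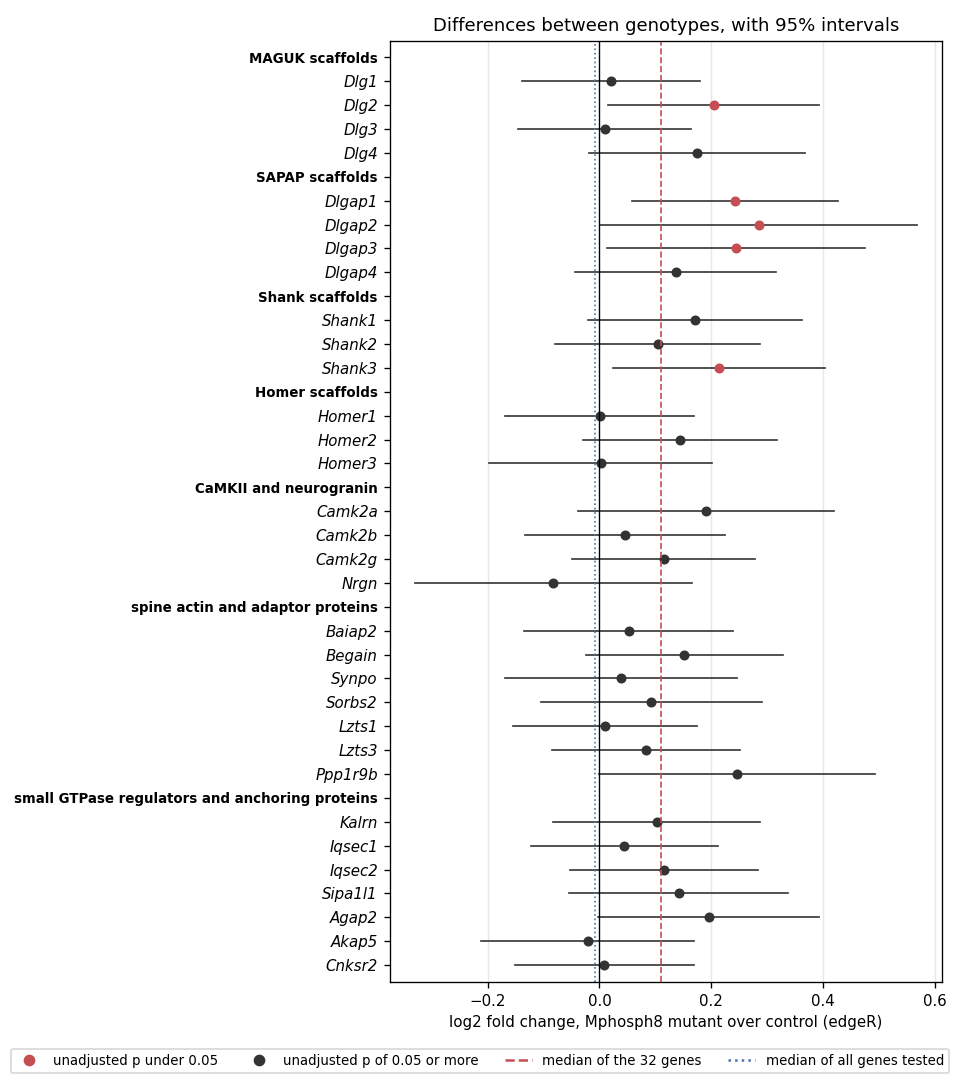
Log2 fold change of Mphosph8 mutant over control (x axis) for each of the 32 genes, grouped by role, with the 95% interval from edgeR as a bar. Red points had an unadjusted p under 0.05 and none passed adjustment. The dashed line is the median of the 32 genes (0.11) and the dotted line that of all genes tested (-0.01).

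The MAGUK scaffolds Dlg1 to Dlg4 bind receptors and channels through their PDZ domains, and Dlg4 codes for PSD-95, the best known of them. Of the 4 genes 0 passed the test, and their median log2 fold change was 0.10. Dlg4 (ENSMUSG00000020886, chr11:70016942-70047522 on GRCm38) was measured at 849, 833 and 759 CPM in controls and at 938, 873 and 944 CPM in mutants. Every mutant value was above every control value, and control 3 was the lowest. The means were 814 ± 47.5 and 918 ± 39.6 CPM (SD, n = 3 each), a log2 fold change of 0.17 ± 0.09 (SE, edgeR adjusted p = 0.811).

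Dlg2 (ENSMUSG00000052572, chr7:90476672-92449247), which codes for PSD-93, had 405, 467 and 429.7 CPM in controls and 517, 465 and 518 CPM in mutants. Mutant 2 lay just under control 2, so that the groups overlapped. The log2 fold change was 0.20 ± 0.09 (edgeR adjusted p = 0.697). Dlg2 is a gene of 1973 kb, and 225 of its exonic bases also belong to another gene on the same strand. Dlg3, the X-linked member that codes for SAP102, showed almost no spread, between 98.5 and 101 CPM in the 3 controls and at 102, 102 and 97.9 CPM in mutants. Its log2 fold change was 0.01 ± 0.07 and its 95% interval ran from -0.15 to 0.16. Dlg1 (SAP97) was at 125 ± 3.36 and 127 ± 5.89 CPM. Per kilobase of exon, the order of levels was Dlg4, Dlg2, Dlg3 and Dlg1 in 6 of 6 libraries, with control means of 61.4, 26.6, 17.1 and 11.7 CPM per kb.

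The SAPAP scaffolds, coded by Dlgap1 to Dlgap4, bind the guanylate kinase domain of PSD-95 and hand the chain on to Shank. This family had the highest median of the 7 role groups, 0.24. At an unadjusted p under 0.05, 3 of 4 genes were higher, against 4.09% of all genes tested, and 0 after adjustment. Without control 3, 0 were at that limit, and without control 1, mutant 1 or mutant 3 only Dlgap1 was. Without control 2, Dlgap1, Dlgap2 and Dlgap3 were, and without mutant 2 all 4 were. Dlgap1 (ENSMUSG00000003279, chr17:69969073-70821413) had 344, 352 and 307 CPM in controls and 413, 369 and 406 CPM in mutants. The groups did not overlap, although mutant 2 was only a little above control 2. The means were 334 ± 24.1 and 396 ± 23.7 CPM, and the log2 fold change was 0.24 ± 0.09 with a 95% interval from 0.06 to 0.43 (edgeR adjusted p = 0.478, DESeq2 adjusted p = 0.320). It stayed between 0.19 and 0.29 when any 1 library was left out.

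Dlgap3 (ENSMUSG00000042388, chr4:127169204-127237022) had 370.4, 389 and 332 CPM in controls and 498, 355 and 439.9 CPM in mutants. The mutants were spread over a wider range than the controls, with mutant 2 inside the control range. The log2 fold change was 0.24 ± 0.11 (edgeR adjusted p = 0.719), and without 1 library it lay between 0.13 and 0.36. Dlgap2 had the lowest level of all 32 genes per kilobase of exon, 3.12 ± 0.592 CPM per kb in controls. It stood at 16.6, 23.4 and 17.6 CPM in controls and at 23.1, 20.005 and 26.9 CPM in mutants. These values overlapped, and the largest log2 fold change of the list, 0.29 ± 0.13, was also the least precise (edgeR adjusted p = 0.764). It was 0.17 without mutant 3 and 0.45 without control 2, and without mutant 3 or control 1 Ppp1r9b had a larger value. Dlgap4 had the smallest difference of the family, at 219.8, 212 and 209.8 CPM in controls and 243, 209 and 252 CPM in mutants, a log2 fold change of 0.14 ± 0.09 that ran from 0.08 without mutant 3 to 0.21 without mutant 2. Mutant 2 was the lowest of these 6 values. Per kilobase, Dlgap3 was highest in all 6 libraries (80.4 CPM per kb in controls), followed by Dlgap4, Dlgap1 and Dlgap2.

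The Shank proteins are the large scaffolds at the inner face of the density, and loss of SHANK3 is a known cause of autism with intellectual disability. Of Shank1 to Shank3, 0 passed the test, with a median log2 fold change of 0.17. Shank3 (ENSMUSG00000022623, chr15:89499623-89560261) had 328, 357 and 338 CPM in controls and 409, 352 and 425 CPM in mutants. Mutants 1 and 3 were above all controls, and mutant 2 was within their range. The means of 341 ± 14.6 and 395 ± 38.5 CPM gave a log2 fold change of 0.21 ± 0.09 (edgeR adjusted p = 0.664).

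Shank1 had 684, 715 and 669.8 CPM in controls and 783, 722 and 825 CPM in mutants. The lowest mutant value was just above the highest control value, and the log2 fold change was 0.17 ± 0.09 (edgeR adjusted p = 0.816). Shank2 had the smallest difference, 0.10 ± 0.09, from 229, 267 and 252 CPM in controls and 275, 246 and 283 CPM in mutants. Its groups overlapped, and the value was 0.04 without control 1 and 0.16 without mutant 2. The order Shank1, Shank3, Shank2 per kilobase held in 6 of 6 libraries, at 65.6, 37.1 and 23.2 CPM per kb in controls. Shank1 and Shank3 have 339 and 271 exonic bases opposite another annotated gene, as do Iqsec1 (574), Homer2 (525), Dlgap1 (92) and Dlgap4 (24). The strand setting of the counting is not given in the sources used here.

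The Homer proteins join Shank to group 1 metabotropic glutamate receptors and to calcium stores. Their median log2 fold change was 0.00, the lowest of the 7 role groups, and 0 of 3 passed the test. Homer1 had 80.0, 78.1 and 70.3 CPM in controls and 78.3, 77.7 and 72.5 CPM in mutants, and the groups lay over each other. Its mean was 76.1 ± 5.17 CPM in control brains and 76.2 ± 3.19 CPM in mutant brains, with a 95% interval of the log2 fold change from -0.17 to 0.17. The counts do not separate the long Homer1 forms from the short form Homer1a, which is induced by activity and lacks the domain that joins Homer chains. Homer2 had 117, 135 and 121 CPM in controls and 137, 129.7 and 147 CPM in mutants, a log2 fold change of 0.14 ± 0.08 with overlap. Homer3, strong in the Purkinje cells of the cerebellum, was at 46.2 ± 4.61 and 46.3 ± 3.46 CPM. It has 874 exonic bases opposite Ddx49.

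CaMKII is the calcium-dependent kinase of the density, with alpha and beta subunits as its main neuronal forms, and neurogranin (Nrgn) binds calmodulin when calcium is low. These genes were among the most abundant of the list. Nrgn had the highest level per kilobase, 507 ± 100.2 CPM per kb in controls and 479 ± 19.8 CPM per kb in mutants. It stood at 886, 731 and 595 CPM in controls and at 664, 721 and 703 CPM in mutants. The mutants lay inside the range of the controls, whose coefficient of variation of 19.8% was the highest of the 32 genes. The log2 fold change was -0.08 ± 0.12, with a 95% interval from -0.33 to 0.16 (edgeR adjusted p = 0.968). It ran from -0.21 without control 3 to 0.07 without control 1.

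Camk2a, second in level with 225 ± 16.4 CPM per kb in controls, had 1667, 1805 and 1560.3 CPM in controls and 1765, 1794 and 2182 CPM in mutants. Mutant 3 stood above all other libraries, and the remaining mutants were within the control range. The log2 fold change was 0.19 ± 0.11 (edgeR adjusted p = 0.866), and 0.09 without mutant 3. Camk2b was at 556 ± 16.7 and 573 ± 7.66 CPM, a log2 fold change of 0.05 ± 0.08. The ratio of Camk2a to Camk2b per kilobase was 3.63, 3.88 and 3.55 in controls and 3.73, 3.88 and 4.62 in mutants, with means of 3.69 ± 0.173 and 4.08 ± 0.476. Mutant 2 was level with the highest control and mutant 3 stood above all others. Camk2g had 214, 214 and 208 CPM in controls and 237, 216 and 235 CPM in mutants. Its groups did not overlap, but mutant 2 was close to the controls, and the log2 fold change was 0.11 ± 0.08 (edgeR adjusted p = 0.904).

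A further group joins the density to spine actin or adapts its signals. It holds Ppp1r9b (spinophilin, which brings protein phosphatase 1 to actin), Baiap2 (IRSp53, a membrane-bending adaptor), Begain (a partner of PSD-95), Synpo (synaptopodin of the spine apparatus), Sorbs2 (an actin adaptor) and the leucine zipper proteins Lzts1 and Lzts3. All 7 log2 fold changes were above 0, 0 passed the test, and the median was 0.08. Ppp1r9b had 1159, 1148 and 985 CPM in controls and 1550.0, 1126 and 1229 CPM in mutants. Mutant 1 stood apart as the highest and mutant 2 was within the control range. The log2 fold change was 0.25 ± 0.12 (edgeR adjusted p = 0.766) and 0.10 without mutant 1. Lzts1 had the smallest difference, 0.01 ± 0.08, from 65.4, 68.9 and 66.3 CPM in controls and 68.8, 63.6 and 69.6 CPM in mutants. Those groups overlapped fully. Begain was at 108 ± 5.67 and 119.6 ± 10.6 CPM (log2 fold change 0.15 ± 0.08), and the values of Baiap2, Synpo, Sorbs2 and Lzts3 were between 0.04 and 0.09. Sorbs2 has 1051 exonic bases opposite Sorbs2os.

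The last group holds regulators of small GTPases and anchors of kinases. Kalrn (kalirin) is an exchange factor for Rac, Iqsec1 and Iqsec2 are exchange factors for Arf6, Sipa1l1 (SPAR) is a Rap-inactivating protein, Agap2 an Arf-inactivating protein, Akap5 an anchor of protein kinase A and calcineurin, and Cnksr2 a scaffold of Ras signalling. Of these 7 genes 0 passed the test, and the median log2 fold change was 0.10. Agap2 had 977, 1023 and 971 CPM in controls and 1091, 1081 and 1232 CPM in mutants. All mutants lay above all controls, with mutant 3 the highest. The means were 991 ± 28.5 and 1135 ± 84.5 CPM, and the log2 fold change was 0.20 ± 0.09 (edgeR adjusted p = 0.773). Akap5 was one of only 2 genes of the list with a value below 0. It had 45.5, 49.8 and 44.9 CPM in controls and 42.5, 50.6 and 44.9 CPM in mutants, a log2 fold change of -0.02 ± 0.09. The lowest and the highest of these 6 values were both mutants. Kalrn, Iqsec1, Iqsec2, Sipa1l1 and Cnksr2 had log2 fold changes of 0.10, 0.04, 0.12, 0.14 and 0.01.

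**Figure D2:**
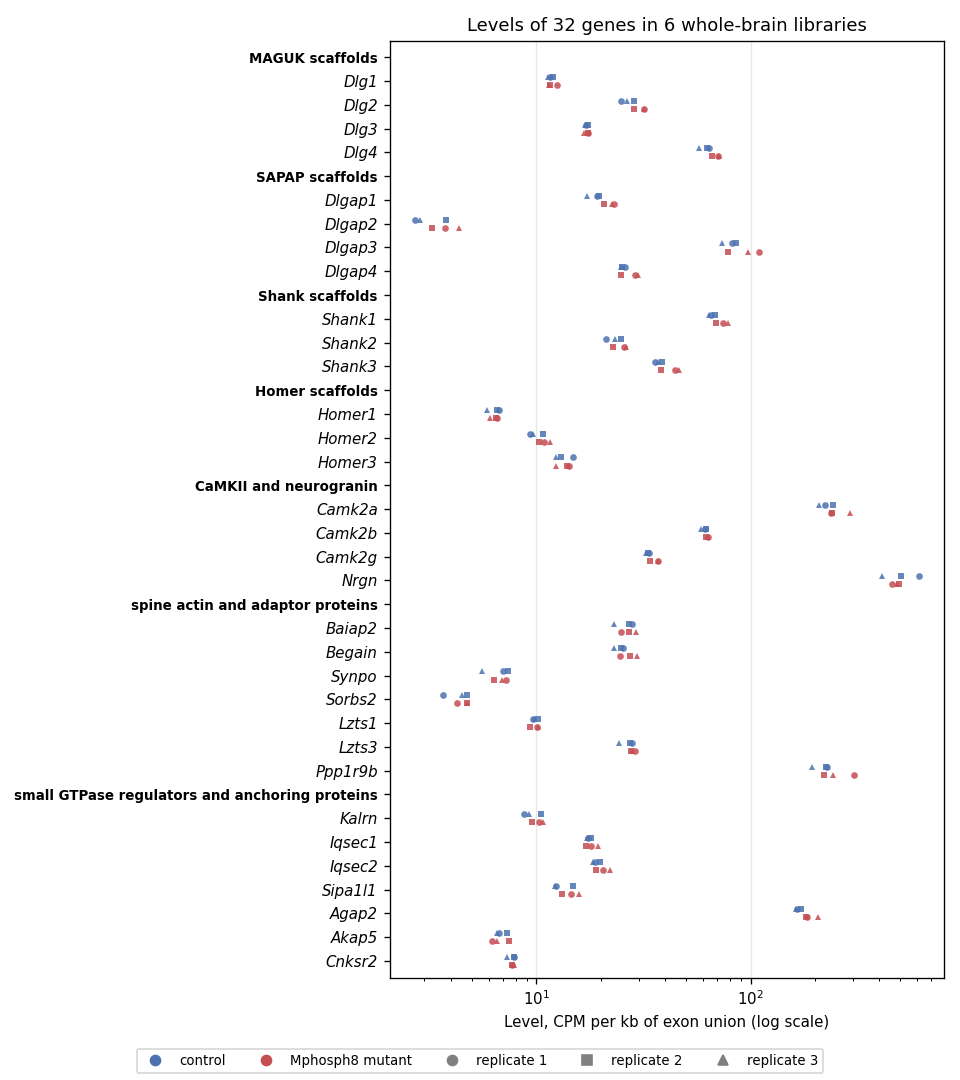
Level of each of the 32 genes in CPM per kilobase of exon union (x axis, log scale), with controls in blue, Mphosph8 mutants in red and a marker shape for each replicate number, which does not pair the brains. Levels run from Dlgap2 to Nrgn, and for most genes the red and blue points lie over each other.

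Levels per kilobase spanned a wide range, from 3.12 CPM per kb for Dlgap2 to 507 CPM per kb for Nrgn in controls. After Nrgn came Camk2a, Ppp1r9b, Agap2 and Dlgap3 at 225, 216, 167 and 80.4 CPM per kb. Camk2a and Ppp1r9b differed by less than the spread between control brains, which was 16.4 and 19.2 CPM per kb. The kilobase scale uses the union of all annotated exons, so genes with many alternative exons are set lower by it. Spread between brains of 1 genotype was small for most genes. The coefficient of variation had a median of 6.96% in controls and 6.38% in mutants, and its lowest values were 1.41% (Dlg3) and 1.32% (Cnksr2).

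The 32 genes were also placed by library, as the difference of log2(CPM + 0.5) from the control mean of each gene. The median over the genes was 0.12, 0.04 and 0.17 in mutants 1, 2 and 3, and -0.00, 0.06 and -0.05 in controls 1, 2 and 3. Mutant 2 thus lay between control 1 and control 2, and the 2 genotypes overlapped. Of the 32 genes, 30 were above their control mean in control 2 and 2 in control 3, while 27, 23 and 26 were above it in mutants 1, 2 and 3. The medians of all genes tested were within 0.01 of 0 in each library. Control 3, the library with Y-linked counts, was therefore the low one among controls.

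**Figure D3:**
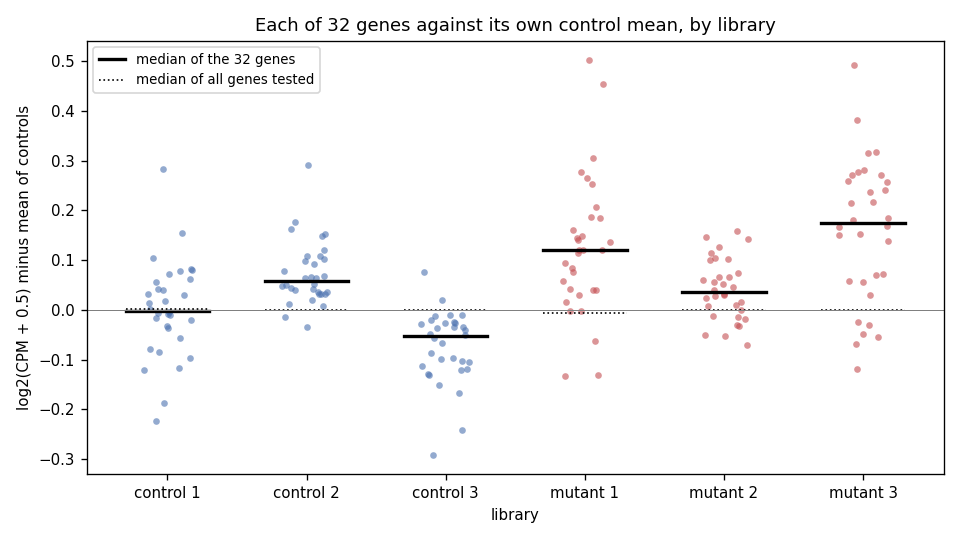
Difference of log2(CPM + 0.5) from the mean of the 3 controls (y axis) for each of the 32 genes in each library (x axis), with the median of the 32 genes as a thick line and of all genes tested as a dotted line. Control 3 is low at -0.05, mutants 1 and 3 are high at 0.12 and 0.17, and mutant 2 at 0.04 lies within the range of the controls.

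Without control 3, 25 of the 32 log2 fold changes were above 0, their median was 0.10 and 0 genes had an unadjusted p under 0.05, where 3.25% of all genes tested were higher in mutants at that limit. Without mutant 3, 26 were above 0, the median was 0.07 and Dlgap1 and Ppp1r9b had an unadjusted p under 0.05, against 3.01% of all genes. Without mutant 2, that number was 9, against 4.81%. The count of genes at the unadjusted limit thus depended on single libraries, while 0 genes were called in all 6 of these fits. The X-linked members Dlg3, Iqsec2 and Cnksr2 had log2 fold changes of 0.01, 0.12 and 0.01 with all libraries and of 0.00074, 0.09 and -0.02 without control 3.

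Beyond their role, the 32 genes were long. The exon union had a median of 8788 bases against 4180 over all genes tested, and the genomic span 67.0 kb against 21.9 kb. Exonic GC content had a median of 53.7% against 49.4%. All 32 had several exons, from 2 to 60 in the transcript with most exons, and they lay on 16 chromosomes. Few reads could be shared with copies elsewhere, since at most 1.06% of the 50-base words of a gene occurred in another gene's transcripts. With a trend on GC content removed from each library, the median log2 fold change was 0.12 and 29 of 32 were above 0, and with a trend on length removed it was 0.10 with 29 above 0.

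Promoter windows from RefSeq on GRCm38.p6, which run from 250 bases before to 50 bases after a start, were matched for 25 of the genes, with 46 windows in all. Letter strings were searched on both strands. The TATA box (TATAAA) was found in 5 of the 46 windows (10.9%) and in 13.6% of all 32851 windows, the cAMP response element (TGACGTCA) in 0 and in 1.79%, and the E-box (CACGTG) in 5 (10.9%) and in 7.15%. These shares count windows and not genes, and only 12 of the 25 genes had a single window. The windows with an E-box all belonged to Begain, Dlg1 and Dlgap1. The number of CpG dinucleotides was higher, with a median of 16 per window for these genes, from 1 to 52, against 7 for all windows. To show how widely these promoters differ, the only windows of Dlgap3 and Shank3, which had an unadjusted p under 0.05, and of Nrgn, the gene with the highest level, are printed 5′ to 3′ with CpG in capitals. They hold 2, 40 and 17 CpG and none of the 3 strings, and lie at chr4:127172630-127172929 on the plus strand, chr15:89499358-89499657 on the plus strand and chr9:37552696-37552995 on the minus strand. The Dlgap3 window begins inside the GENCODE gene model, which starts at 127169204.
Dlgap3: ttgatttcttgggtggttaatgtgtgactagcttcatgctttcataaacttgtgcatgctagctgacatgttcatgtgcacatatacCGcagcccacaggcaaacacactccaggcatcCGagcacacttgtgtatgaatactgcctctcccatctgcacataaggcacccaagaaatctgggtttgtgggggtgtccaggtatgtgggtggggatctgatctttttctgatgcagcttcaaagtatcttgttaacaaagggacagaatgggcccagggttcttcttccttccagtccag
Shank3: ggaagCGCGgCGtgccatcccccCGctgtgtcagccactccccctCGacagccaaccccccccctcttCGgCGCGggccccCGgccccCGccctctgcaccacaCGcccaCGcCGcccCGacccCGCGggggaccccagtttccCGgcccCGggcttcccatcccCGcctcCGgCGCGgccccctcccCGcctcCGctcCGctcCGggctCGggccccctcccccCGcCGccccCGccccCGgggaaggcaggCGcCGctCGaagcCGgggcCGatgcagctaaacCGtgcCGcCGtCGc
Nrgn: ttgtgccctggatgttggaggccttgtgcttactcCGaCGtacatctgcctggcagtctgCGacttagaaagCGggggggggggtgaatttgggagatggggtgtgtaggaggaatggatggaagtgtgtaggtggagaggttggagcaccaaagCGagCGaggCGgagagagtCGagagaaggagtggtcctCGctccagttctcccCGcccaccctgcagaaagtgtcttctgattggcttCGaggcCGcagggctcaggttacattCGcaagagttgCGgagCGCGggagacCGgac

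Other genes of the excitatory synapse had a median nearer to 0, and that difference was not tested. Of 48 further postsynaptic density genes, 34 had a log2 fold change above 0 and 14 below, with a median of 0.06, between 0.04 and 0.08 without 1 library, and 0 called. At an unadjusted p under 0.05, 5 were higher and 1 lower, where 4.09% and 2.41% of all genes tested were. The largest value was that of Grip1, which binds AMPA receptor subunits, with 30.8 ± 1.86 CPM in control brains and 38.5 ± 3.63 CPM in mutant brains (log2 fold change 0.32 ± 0.10, edgeR adjusted p = 0.269). The smallest was that of Lzts2, at -0.21 ± 0.09 (edgeR adjusted p = 0.690). Of 11 glutamate receptor genes 7 were above 0 and 4 below, with a median of 0.06 and 0 called. Without 1 library that median lay between -0.03 (mutant 1) and 0.10 (mutant 2), so its sign rested on a single library. The receptor genes ran from Gria3, an AMPA receptor subunit, at -0.08 to Grin2d, an NMDA receptor subunit, at 0.21. The 9 activity-dependent genes, induced within minutes by synaptic firing, had 1 value above 0 (Npas4, 0.07 ± 0.23) and 8 below, a median of -0.26 and 0 called. At an unadjusted p under 0.05, 3 were lower, against 2.41% of all genes tested, and these genes come from the same 6 brains. This median was -0.52 without control 3, the lowest control for their summed level, and -0.07 without control 2. Egr2 had the lowest value, -0.75 ± 0.29 (edgeR adjusted p = 0.552). Their summed level was 128 to 256 CPM in controls and 146 to 170 CPM in mutants, so the mutants lay inside the control range.

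**Figure D4:**
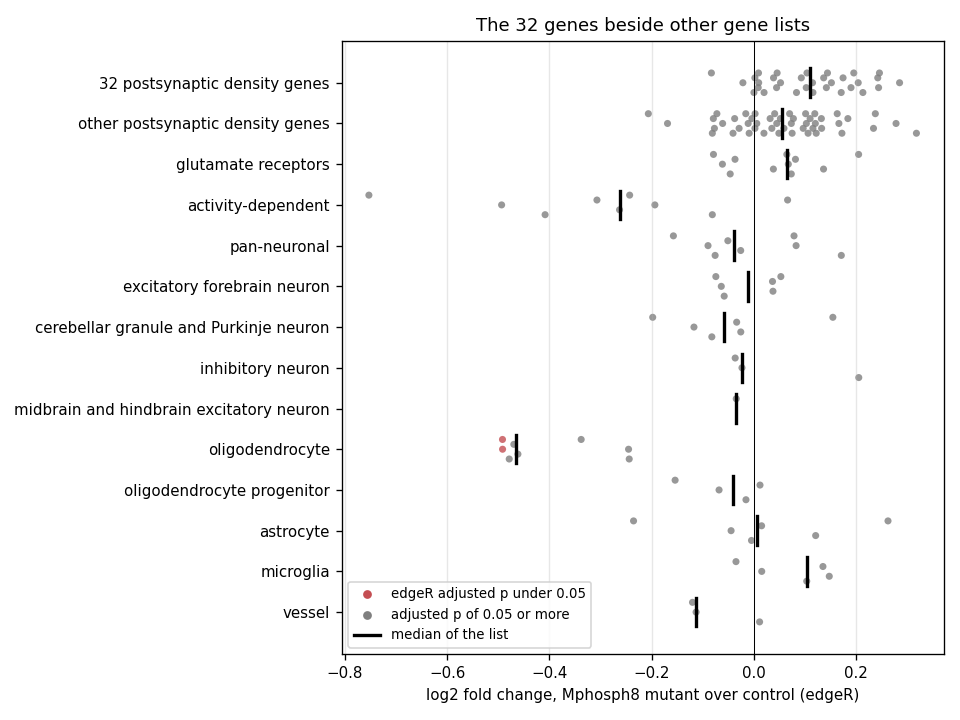
Log2 fold change of Mphosph8 mutant over control (x axis) for the 32 genes and for 13 other gene lists (rows), with 1 point per gene and the median as a bar. Red marks an edgeR adjusted p under 0.05, which only Mog and Cldn11 of the oligodendrocyte markers reached, and the oligodendrocyte median of -0.47 is the lowest.

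Neuron marker lists were centred near 0. The 8 pan-neuronal genes had a median log2 fold change of -0.04, from Snap25 (-0.16) to Map2 (0.17), and a summed level of 4779 to 5064 CPM in controls and 4751 to 5124 CPM in mutants. Markers of excitatory forebrain neurons (6 genes), cerebellar granule and Purkinje neurons (6), inhibitory neurons (3) and midbrain and hindbrain excitatory neurons (Slc17a6) had medians of -0.01, -0.06, -0.02 and -0.03, with 0 called. The sign of these medians and of the pan-neuronal one changed without 1 library, within -0.11 and 0.08. The lowest value of the forebrain list was that of Tbr1 (-0.07). The cerebellar list ran from Pcp2 (-0.20) to Cbln3 (0.15), and the inhibitory list from Gad1 (-0.04) to Gad2 (0.21). The summed level of the 32 scaffold and signalling genes was 10011 to 11137 CPM in controls and 11072 to 12378 CPM in mutants, with overlap.

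Oligodendrocyte markers lay lower in mutants. All 8 had values below 0 with a median of -0.47, and 2 of 8 passed the test. Mog, a protein of the myelin surface, fell from 251 ± 24.5 to 178 ± 27.2 CPM (log2 fold change -0.49 ± 0.10, edgeR adjusted p = 0.0351), and Cldn11, the claudin of myelin, from 684 to 486 CPM, with SDs of 61.0 and 72.01 CPM (-0.49 ± 0.11, edgeR adjusted p = 0.0496). Both edgeR calls were close to the threshold. Of the alternatives on all libraries, Mog lost its call only with the GC trend removed, and Cldn11 lost its call in more of them. DESeq2 gave an adjusted p of 0.00174 for Mog and 0.000836 for Cldn11. In edgeR these were 0.00373 and 0.0152 with the replicate block, and 0.0272 and 0.0375 with the length trend removed. With no filter they were 1.1e-05 and 4.1e-05, and with the GC trend removed and the replicate block 0.00313 and 0.0152. With the GC trend removed the adjusted p from edgeR was 0.0546 for Mog and 0.0706 for Cldn11. Cldn11 was at 0.0534 with RLE size factors and at 0.0521 with a minimum of 1 CPM, where Mog was at 0.0378 and 0.0372. Of the fits that left out 1 library, only that without mutant 1 kept these calls, while the log2 fold changes stayed between -0.60 and -0.38 for Mog and between -0.57 and -0.37 for Cldn11. Without the other libraries, edgeR's adjusted p ran from 0.0550 (control 3) to 0.227 (mutant 3) for Mog and from 0.0807 (control 3) to 0.363 (mutant 3) for Cldn11. Cnp had the value nearest to 0, -0.24 ± 0.10. The summed level of the 8 markers was 21576 to 25839 CPM in controls and 17129 to 19850 CPM in mutants, without overlap. Markers of oligodendrocyte progenitors, astrocytes, microglia and vessels had medians of -0.04, 0.01, 0.10 and -0.11, with 0 called of 4, 6, 5 and 3 genes. The sign of the progenitor and astrocyte medians changed without 1 library. They ran from Olig2 (-0.15) to Pdgfra (0.01), from Gfap (-0.24) to Aldh1l1 (0.26), from Tmem119 (-0.03) to Csf1r (0.15) and from Pecam1 (-0.12) to Flt1 (0.01). No marker of any list was at 0, and forebrain, cerebellar and Slc17a6 markers were counted in every library, as the label of whole brain requires. The part of the lower oligodendrocyte markers in the values of the 32 genes was not tested.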

How the data were processed

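RNA of 6 whole brains was measured, 3 control and 3 Mphosph8 mutant. For the RNA-seq controls the paper gives the transgene and no Mphosph8 allele, and the genotype in the labels was used. The authors made polyA-selected libraries with single reads of 50 bases, trimmed them with Trim Galore 0.5.0, removed ribosomal, mitochondrial, phiX and adapter reads with Bowtie2 2.3.4.1, mapped what was left to GRCm38 (STAR) and counted reads with featureCounts of Subread 1.6.2 (tool versions per the labels' processing notes). The deposited values are raw counts per Ensembl gene, not normalised. Symbols were found for 54495 of 54532 identifiers in GENCODE M21.

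Counts were tested with edgeR 4.0.16 in R 4.3.3 (quasi-likelihood F test, filterByExpr, TMM, genotype as the only term, all 6 libraries). P-values were adjusted by the Benjamini-Hochberg method across 16731 genes, with a threshold of 0.05. Standard errors come from the F statistic. DESeq2 1.42.0 was an alternative, beside RLE size factors, no filter, at least 1 CPM in 3 libraries, a replicate block, removal of a GC or length trend by loess (span 0.3) and each library left out in turn. The steps were tested on simulated data. Same-numbered brains of the 2 genotypes had correlations of their deviations of 0.10, -0.05 and 0.08, so the numbers were not taken as pairs. Replicates differed by more than sampling noise (chi-square per degree of freedom 3.67 to 13.6).

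The 32 genes, the other lists and the alternatives were chosen with earlier results of these data known. Values per library are given for Mphosph8, for genes with an unadjusted p under 0.05 or without overlap between the groups, for the largest and smallest log2 fold change of each role group and for the highest and lowest level per kilobase. From the other lists, called genes and the largest and smallest values are named, except for 1 value that is not reported here.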

Additional observations from a re-analysis of the deposited data

How the results depend on the processing

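No postsynaptic density gene was called under any of the 14 alternatives fitted again, and the smallest adjusted p of a member was 0.233 (Dlgap3 without mutant 2, edgeR). The median log2 fold change was 0.10 to 0.12 over the 8 alternatives on all libraries and 0.07 to 0.15 without 1 library. The number of members above 0 was 28 to 30 and 25 to 30. With the replicate block the median was 0.11, with 30 above 0, 5 at an unadjusted p under 0.05 and 0 called, so the block changed no call. Counting members by an unadjusted p under 0.05 in place of the adjusted p gave 5. DESeq2 gave 9 at that limit, and leaving out 1 library gave 0 (without control 3) to 9 (without mutant 2). The cause was not tested.

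Of the 256 member values over the 8 alternatives, 7 changed sign. These were Homer1 with DESeq2 (-0.0029), with no filter (-0.0019), with the GC trend removed (-0.064), with it and the replicate block (-0.060) and with the length trend removed (-0.017), and Homer3 with DESeq2 (-0.00087) and with no filter (-3.9e-05). Without 1 library, 12 members changed sign in at least 1 fit: Dlg1 (-0.019 to 0.042), Dlg3 (-0.0019 to 0.028), Homer1 (-0.053 to 0.037), Homer3 (-0.055 to 0.084), Nrgn (-0.21 to 0.069), Baiap2 (-0.025 to 0.11), Synpo (-0.072 to 0.12), Sorbs2 (-0.012 to 0.17), Lzts1 (-0.016 to 0.048), Iqsec1 (-0.0050 to 0.089), Akap5 (-0.096 to 0.031) and Cnksr2 (-0.023 to 0.025). The other 20 did not change sign. Against the fit on all libraries, values moved by over 1.5 times for Homer2 (0.096 to 0.21) and Camk2b (0.023 to 0.061). The same held for Begain (0.088 to 0.21), Lzts3 (0.023 to 0.12), Kalrn (0.044 to 0.18), Iqsec2 (0.062 to 0.16) and Sipa1l1 (0.074 to 0.24). Dlgap2, Dlgap3, Dlgap4, Shank2, Camk2a and Ppp1r9b also moved that far. The remaining members moved less against that fit but still varied, as with Shank3 (0.16 to 0.29). With 3 brains per genotype, the 95% limits of the members allow differences of up to 1.48-fold.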
